A study of Mus musculus with 12 samples.

Results

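Nonsense-mediated decay (NMD) is the pathway that degrades mRNAs whose translation ends too early, and 8 genes of its core machinery were followed here at the level of splicing in newly made RNA: *Upf1*, *Upf2*, *Upf3a*, *Upf3b*, *Smg1*, *Smg5*, *Smg6* and *Smg9*. Their splicing clusters were taken by gene name, with all introns of each cluster that was tested. A cluster is a group of introns that share splice sites, as LeafCutter builds it from split reads, the reads that span an intron. This gave 10 of 7263 tested clusters and 22 of 20437 introns, in 5 of the 8 genes. *Upf3a*, *Smg6* and *Smg9* had no tested cluster.

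The cells were female mouse embryonic stem cells from a 129S x Cast cross, grown on inactivated fibroblast feeders. In every sample the C-terminus of *Mettl3*, the catalytic subunit of the m6A writer, carried FKBP12(F36V), and the cells also held a doxycycline-inducible *Xist*. The 6 Ctrl samples were not treated and the 6 dTAG samples had dTAG-13, which sends the tagged protein to degradation, for 3 h, before 30 min of 4-thiouridine (4sU) labelling, and 4sU-labelled RNA was sequenced. Clones C3 and H5 each gave 3 replicates in either condition, with 2 clones in all. The comparison asks how splicing of these genes differed soon after METTL3 depletion. The deposited values are the authors' fitted percent spliced in (PSI), the share of a cluster's split reads that use an intron, as a fraction and 1 value per condition over both clones. The tables hold no value per sample, so no PSI below has a replicate error and no difference below was tested. They hold no read counts either. The clusters had to pass a minimum of split reads, but the depth behind each PSI above that floor is unknown. *Mettl3* itself had 2 tested clusters, with largest absolute differences of 0.00386 and 0.0258. The tag removes the protein and not the RNA, so these do not check the labels. Of 14 embryonic stem cell markers 10 had a tested cluster, and of 8 markers of differentiated cells 0 did. Of 9 feeder fibroblast markers 1 did, *Fn1*, with 5 clusters in the list, and the part of feeder RNA in these values was not tested. A tested cluster needs introns that share a splice site and enough split reads, so these marker counts do not measure expression.

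In NMD the RNA helicase UPF1 is the central factor. UPF2 binds UPF1 and is joined by UPF3B, or by its paralogue UPF3A, to the exon junction complex that splicing leaves on the mRNA. A stop codon well upstream of such a complex marks the mRNA for decay. The kinase SMG1, held in check by SMG8 and SMG9, then phosphorylates UPF1, and the phosphorylated helicase recruits the endonuclease SMG6 and the adaptor SMG5, through which further decay enzymes are brought in.

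The sequences that the splicing choices add or remove are shown for the 8 clusters that lie between coding exons. They are read from the GRCm38 genome on the strand of the gene, 5′ to 3′, with 10 bases of flank in lower case. Capitals mark the stretch that is exon in one form and intron in the other.

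Upf1, alternative 5′ splice site of 33 nt, chr8:70339972-70340024, minus strand: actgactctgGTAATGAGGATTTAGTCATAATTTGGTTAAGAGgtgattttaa

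Upf2, tandem 3′ splice site of 3 nt, chr2:6046888-6046910, plus strand: tgtcttgaagCAGcgaagtggtg

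Upf3b, cassette exon of 39 nt, chrX:37099056-37099114, minus strand: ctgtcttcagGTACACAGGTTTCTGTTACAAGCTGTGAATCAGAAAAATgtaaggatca

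Smg1, cassette exon of 58 nt, chr7:118217710-118217787, minus strand: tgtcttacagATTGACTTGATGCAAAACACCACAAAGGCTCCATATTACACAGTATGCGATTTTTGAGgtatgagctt

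Smg1, alternative 3′ splice site of 104 nt, chr7:118195922-118196045, minus strand: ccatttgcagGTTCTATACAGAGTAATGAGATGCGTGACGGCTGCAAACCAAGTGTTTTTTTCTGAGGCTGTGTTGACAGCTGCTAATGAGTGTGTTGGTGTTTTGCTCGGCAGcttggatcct

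Smg5, alternative 5′ splice site of 42 nt, chr3:88342513-88342574, plus strand: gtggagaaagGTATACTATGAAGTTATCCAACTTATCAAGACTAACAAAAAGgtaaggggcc

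Smg5, alternative 3′ splice site of 31 nt, chr3:88349101-88349151, plus strand: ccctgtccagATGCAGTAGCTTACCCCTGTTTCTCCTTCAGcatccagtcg

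Smg5, alternative 5′ splice site of 4 nt, chr3:88349431-88349454, plus strand: cagcccaaaaGTAGgtgagtgtga

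No cluster of these genes had an intron whose PSI differed by 0.1 or more between dTAG and Ctrl, which 4.63% of all tested clusters had. With 10 clusters, a count of 0 of 10 is close to that background and is no result about these genes by itself. At 0.05 or more the count was also 0 of 10, where 19.8% of all tested clusters reached this size. At 0.02 or more it was 3 of 10, both *Smg1* clusters and the *Upf3b* cluster, against 52.3% of all tested clusters. The median over the 10 clusters of the largest absolute deltaPSI, the PSI in dTAG minus the PSI in Ctrl, was 0.0141 and that over all tested clusters was 0.0214. Of the 10 clusters 7 lay below the median of all. However, 8 of the 10 were clusters of 2 introns, whose median over the whole series was 0.0150, against 0.0270 for clusters of 3 introns. No difference reached 0.05, but without replicate error the sizes do not show that the splicing of these genes did not respond. The genes were also chosen with earlier results of these data known, so their medians here and below are a description only.

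**Figure D1:**
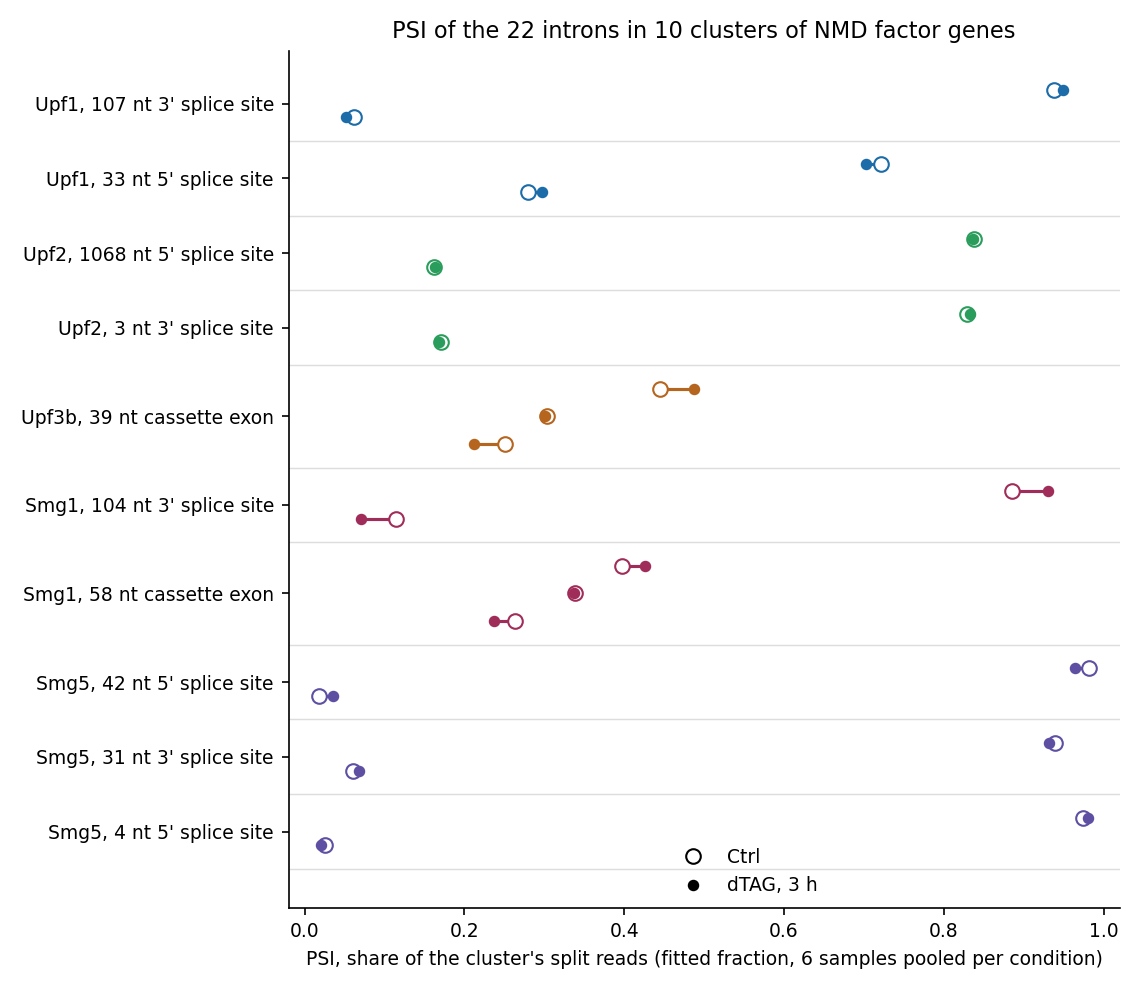
PSI (fraction of the cluster's split reads, horizontal axis) of each of the 22 introns in the 10 tested clusters of *Upf1*, *Upf2*, *Upf3b*, *Smg1* and *Smg5*, with open circles for Ctrl and filled circles for dTAG. Each row group is a cluster, named by gene and by the length of its cassette exon or the distance between its alternative splice sites. The longest line joins PSI values that differ by 0.0447, in *Smg1*.

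*Upf1*, the helicase, had 2 tested clusters on the minus strand of chromosome 8. The first holds intron 7 of 23, where a pair of 5′ splice sites 33 nt apart produces a longer and a shorter exon. The known long and short forms of the UPF1 regulatory loop differ in this way. The intron of the short form (chr8:70339842-70340014, transcript Upf1-202) had a PSI of 0.721 in Ctrl and 0.703 in dTAG. The intron of the long form (chr8:70339842-70339981, Upf1-201) had 0.279 and 0.297, a deltaPSI of 0.0180. The short form was the major form in both conditions. The sequence aagGTaagt takes the most frequent base at each of 9 positions of the 5′ splice site over all introns of tested clusters, with the first intron bases in capitals. The site of the long form, gagGTgatt, matches it at 6 positions, and the more used site of the short form, ctgGTaatg, at 5.

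The second *Upf1* cluster lies after the stop codon, at the last of 23 introns, where a pair of 3′ splice sites 107 nt apart sets the length of the last exon. The intron annotated in GENCODE vM21 (chr8:70332480-70332619) had a PSI of 0.938 in Ctrl and 0.948 in dTAG. The intron to the further site (chr8:70332373-70332619), in RefSeq but not in GENCODE vM21, had 0.0622 and 0.0516, a deltaPSI of -0.0106. Both introns start at aagGCaagt, a 5′ splice site with GC in place of GT, which begins 0.945% of all introns of tested clusters. The stop codon of Upf1-201 ends 3 nt before this intron.

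*Upf2* encodes the adaptor between UPF1 and UPF3, and its clusters showed the smallest differences of the 5 genes. At intron 18 of 21 in Upf2-201, tandem 3′ splice sites 3 nt apart decide whether CAG is kept. The intron that keeps it (chr2:6040562-6046897) had a PSI of 0.829 in Ctrl and 0.832 in dTAG. The intron that leaves it out (chr2:6040562-6046900, Upf2-202) had 0.171 and 0.168, a deltaPSI of -0.00329.

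At the first intron of *Upf2*, before the start codon, a pair of 5′ splice sites 1068 nt apart share a 3′ splice site. The intron of Upf2-201 (chr2:5951554-5957470) had a PSI of 0.837 in both conditions. The intron from the inner site (chr2:5952622-5957470), in RefSeq but not in GENCODE vM21, had 0.163 in both, with a deltaPSI of 0.000736. Of all tested clusters 2.40% had a smaller largest absolute deltaPSI than this one.

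*Upf3b* lies on the X chromosome and encodes the factor that contacts the exon junction complex. Its only tested cluster is a cassette exon of 39 nt (chrX:37099066-37099104), which keeps the reading frame. The skipping intron (chrX:37097019-37099506, intron 7 of 9 in Upf3b-201) had a PSI of 0.251 in Ctrl and 0.212 in dTAG, a deltaPSI of -0.0394. The intron downstream of the exon (chrX:37097019-37099065) had 0.445 and 0.488, a deltaPSI of 0.0429. The intron upstream of it (chrX:37099105-37099506) had 0.304 and 0.300, a deltaPSI of -0.00351. So the skipping form was lower and the junction on 1 side of the exon higher, while the junction on the other side was nearly the same. Inclusion, taken as the mean PSI of the introns on either side over that mean plus the PSI of the skipping intron, was 59.8% in Ctrl and 65.0% in dTAG. That difference of 5.19 percentage points compares with a median absolute difference of 1.61 over all 2411 cassette exons in clusters of 3 introns. Of those exons 85.1% had a smaller absolute difference.

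*Smg1*, the kinase of UPF1, had 2 tested clusters on the minus strand of chromosome 7, and a cluster of *Smg1* held the largest PSI difference of the family. At intron 10 of 62, the intron to the annotated 3′ splice site (chr7:118196036-118198190) had a PSI of 0.885 in Ctrl and 0.930 in dTAG. The intron to a site 104 nt further on (chr7:118195932-118198190) had 0.115 and 0.0701, a deltaPSI of -0.0447. The minor form had a lower PSI in dTAG, at 0.611 of its PSI in Ctrl. This further 3′ splice site lies inside an exon and was annotated neither in GENCODE vM21 nor in RefSeq. Of all tested clusters 76.7% had a smaller largest absolute deltaPSI.

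The other *Smg1* cluster is at its first intron and includes or skips an exon of 58 nt (chr7:118217720-118217777). The skipping intron (chr7:118213053-118243204, intron 1 of 62 in Smg1-201) had a PSI of 0.397 in Ctrl and 0.426 in dTAG, a deltaPSI of 0.0283. The intron upstream of the exon (chr7:118217778-118243204) had 0.264 and 0.237, a deltaPSI of -0.0272. The intron downstream (chr7:118213053-118217719) had 0.339 and 0.338. Inclusion of the exon was 43.1% in Ctrl and 40.3% in dTAG, a difference of -2.84 percentage points, and 68.6% of the cassette exons had a smaller absolute difference. As in *Upf3b*, the introns on either side of the exon did not differ by the same amount. Their deltaPSI were 0.0262 apart here and 0.0464 apart in *Upf3b*, where the median over all cassette exons was 0.0291. *Upf3b* inclusion was higher and *Smg1* inclusion lower in dTAG.

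*Smg5*, an adaptor that binds phosphorylated UPF1, had 3 tested clusters on the plus strand of chromosome 3, each with a dominant annotated intron of Smg5-201. At intron 3 of 21, the dominant intron (chr3:88342565-88342879) had a PSI of 0.982 in Ctrl and 0.964 in dTAG. The intron from a 5′ splice site 42 nt upstream (chr3:88342523-88342879), in RefSeq but not in GENCODE vM21, had 0.0182 and 0.0357, a deltaPSI of 0.0175. The minor PSI in dTAG was 1.96 times that in Ctrl, on a share of under 0.05 in both conditions. Its 5′ splice site, aagGTatac, matches the most frequent bases at 6 of 9 positions and the dominant site, aagGTaagg, at 8.

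At intron 7 of 21 in *Smg5*, the dominant intron (chr3:88347597-88349141) had a PSI of 0.939 in Ctrl and 0.932 in dTAG. The intron to a 3′ splice site 31 nt upstream (chr3:88347597-88349110) had 0.0608 and 0.0683, a deltaPSI of 0.00756. GENCODE vM21 has this junction only in Smg5-202, a transcript that it classes as a target of NMD. At intron 9 of 21, the dominant intron (chr3:88349445-88350015) had 0.974 and 0.980. The intron from a 5′ splice site 4 nt upstream (chr3:88349441-88350015), annotated neither in GENCODE vM21 nor in RefSeq, had 0.0260 and 0.0201, a deltaPSI of -0.00590. In all 3 clusters the minor intron had a PSI under 0.1 in both conditions.

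The remaining genes gave no values. No cluster of any status carried the name of *Upf3a*, the paralogue of *Upf3b*, of *Smg6*, the endonuclease, or of *Smg9*, the SMG1 partner, and no tested cluster had an intron end at an annotated exon boundary of these genes. GENCODE vM21 annotates 8 introns in *Upf3a*, of which 0 share a splice site with another annotated intron. In *Smg6* 8 of 22 annotated introns share a site, and in *Smg9* 4 of 15. A cluster needs introns that share a site and enough split reads, and which of these was missing for *Upf3a*, *Smg6* and *Smg9* was not tested. Clusters are built without annotation, so the annotated counts do not settle it.

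**Figure D2:**
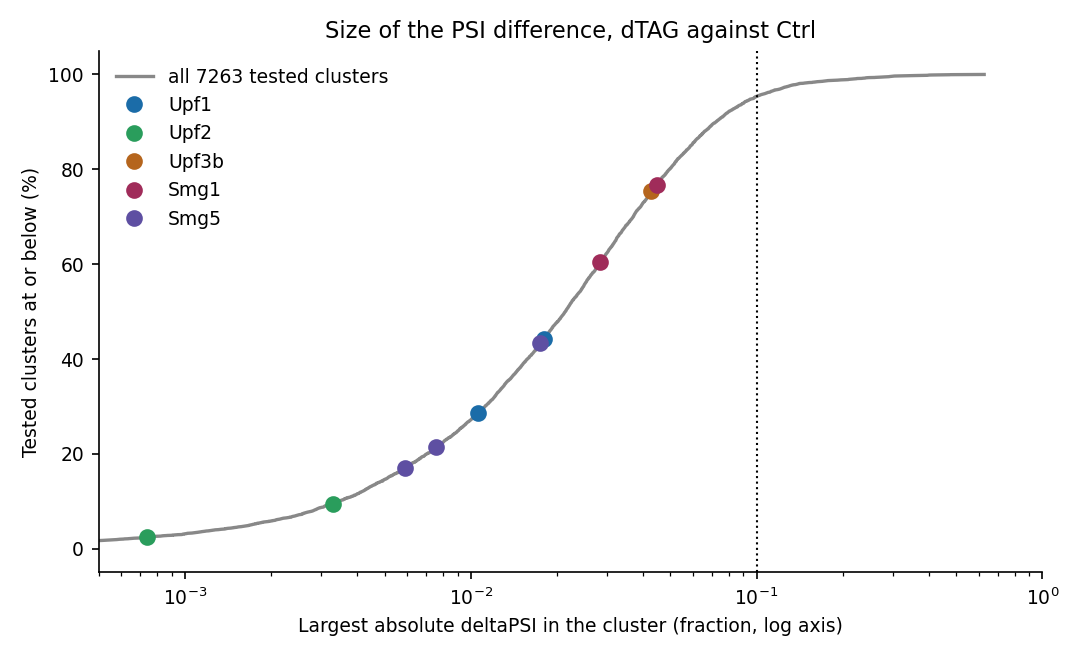
Share of the 7263 tested clusters (percent, vertical axis) at or below each largest absolute deltaPSI (fraction, log horizontal axis), with the 10 NMD factor clusters as coloured points and a dotted line at 0.1. All 10 points lie left of the line, from 0.000736 in *Upf2* to 0.0447 in *Smg1*. Of all tested clusters only 4.63% reach the line, so this is close to the background.

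The order of the 5 genes by their largest absolute deltaPSI was *Smg1* (0.0447), *Upf3b* (0.0429), *Upf1* (0.0180), *Smg5* (0.0175) and *Upf2* (0.00329). Without a value per sample it cannot be said which neighbours in this order differ. Size depended on the shape of the cluster in the whole series. Over all clusters of 2 introns the median was 0.0150 and over those of 3 introns 0.0270. The 8 NMD factor clusters of 2 introns had a median of 0.00908, and the 2 of 3 introns had 0.0283 and 0.0429. Among clusters of 2 introns whose larger PSI in Ctrl was at least 0.9, the 4 of these genes had a median of 0.00908 and all 1828 a median of 0.00811. Among those with a larger PSI below 0.9, the 4 of these genes had a median of 0.0107 and all 1627 a median of 0.0297. The latter were the *Upf1* regulatory loop choice, both *Upf2* choices and the 104-nt choice of *Smg1*, each with a minor PSI of over 0.1 in Ctrl.

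A difference of PSI is bounded where the minor form is rare, so the clusters were also placed on the scale of log2 odds, the log2 of PSI over 1 minus PSI. There the *Smg5* cluster with 5′ splice sites 42 nt apart came first, with a change of 1.00, more than in 89.5% of all tested clusters, against 43.4% on the scale of deltaPSI. The *Smg1* cluster with 3′ splice sites 104 nt apart followed with 0.78, more than in 81.3%. The cassette exon of *Upf3b*, at 0.32, exceeded 41.7% of all tested clusters, and its place by deltaPSI was 75.4%. That of *Smg1*, at 0.21, exceeded 26.2%, and its place by deltaPSI was 60.4%. Over all 10 clusters the median change in log2 odds was 0.25, and over all tested clusters 0.39. The first intron and the tandem site of *Upf2* exceeded 0.688% and 3.66% of all tested clusters by log2 odds, and 2.40% and 9.46% by deltaPSI.

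**Figure D3:**
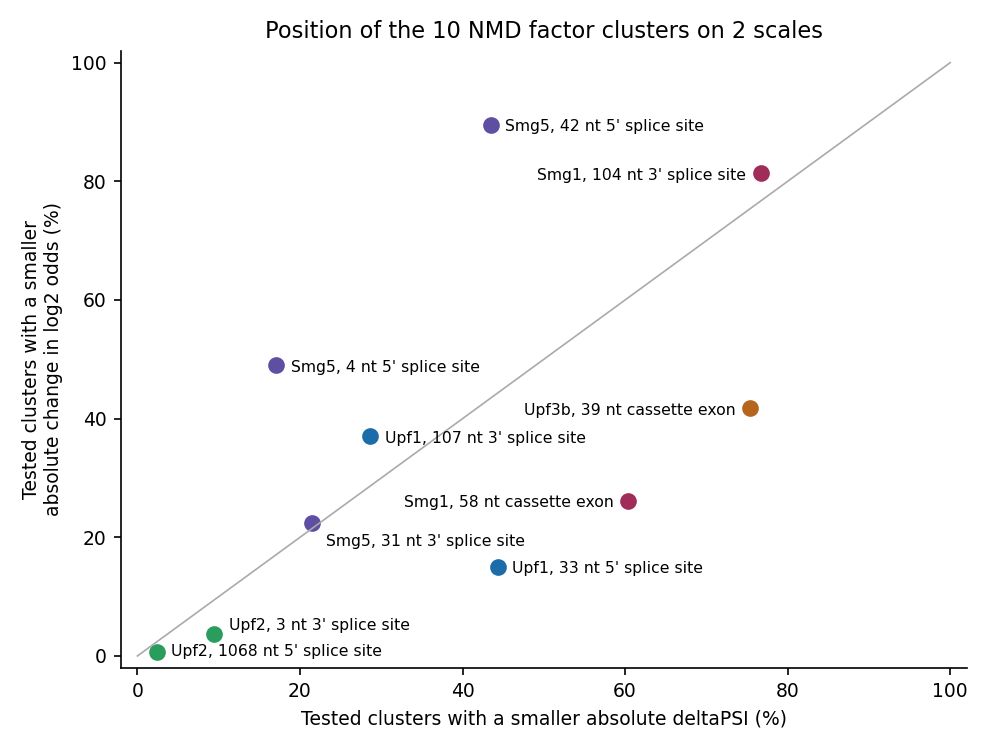
Each point is 1 of the 10 NMD factor clusters, named by gene and by cassette exon length or splice site distance. Its place is the percent of all tested clusters with a smaller absolute deltaPSI (horizontal axis) and with a smaller absolute change in log2 odds (vertical axis). Points above the diagonal, such as the 42-nt choice of *Smg5* at 43.4% and 89.5%, are larger on the log2 odds scale.

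The alternative forms were put into the coding transcript numbered 201 of each gene to find the stop codon they lead to. In 4 of the 10 clusters the form that differs from this transcript shifts the frame and meets a stop codon early, 2042 to 10861 nt upstream of the last exon junction, the arrangement that NMD is known to act on. With the 58-nt exon included, the *Smg1* reading frame ended after 31 of 3658 codons, and with the 104-nt shorter exon after 432. GENCODE vM21 also has a coding transcript, Smg1-203, which is marked as incomplete and whose start codon lies in the 58-nt exon. In *Smg5* the 31-nt longer exon ended the frame after 237 of 1017 codons, and the 4-nt shorter exon after 307. Of these 4 forms, 3 had a lower mean PSI in dTAG and 1 a higher one, the 31-nt form of *Smg5*, with deltaPSI from -0.0447 to 0.00756.

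The frame was kept in 4 further clusters, in 4 genes. The shorter loop exon of *Upf1* removes 33 nt, for 1113 codons in place of 1124. The 39-nt exon of *Upf3b* gives 485 codons in place of 472, the tandem site of *Upf2* 1268 in place of 1269, and the 42-nt choice of *Smg5* 1003 in place of 1017. Of these alternative forms 2 had a higher and 2 a lower mean PSI in dTAG. The other 2 clusters do not touch the coding sequence. No direction was shared by the forms of either kind.

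Annotation, length and sequence of the introns were set beside all introns of tested clusters. GENCODE vM21 held 17 of the 22 junctions (77.3%) and 74.7% of all junctions of tested clusters. Of the 5 others, 3 were in RefSeq models and 2 in neither. The median length of the 22 introns was 1796 nt, against 1865 nt for all introns of tested clusters, and the 22 ranged from 140 to 30152 nt. METTL3 methylates adenosine within the DRACH consensus, of which GGACT is the best known form. GGACT was searched on the strand of the transcript only, within 100 nt on either side of each 5′ splice site. It was found at 3 of 16 distinct 5′ splice sites (18.8%), where 18.9% of all 13986 had it. The 3 were those of the first intron of *Smg1*, of the outer first intron of *Upf2* and of intron 18 of *Upf2*. These letters mark no methylated site by themselves.

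Beyond the 8 genes, values were also taken for 39 other genes of the pathway and of general mRNA handling. They cover the exon junction complex, translation termination, cap and tail binding, decapping, deadenylation and decay, and not all are specific to NMD. Of these 24 had a tested cluster, with 53 clusters in all. A largest absolute deltaPSI of at least 0.1 was found in 0 of the 53 clusters and in 4.63% of all tested clusters. The largest absolute deltaPSI of the gene was at least 0.05 in 3 of the 24, where 29.6% of all 4273 genes with a tested cluster had such a cluster. These were *Pan2* (0.0639) of the PAN2-PAN3 deadenylase, *Pym1* (0.0576), which takes apart exon junction complexes, and *Ttc37* (0.0553) of the SKI complex. The list is not complete, so the share describes these 24 genes and not the pathway.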

How the data were processed

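The authors aligned 4sU-seq reads to mm10 with STAR 2.5.2b, kept uniquely mapped reads and formed splicing clusters with LeafCutter, requiring a minimum of split reads for a cluster, comparing dTAG with Ctrl over both clones. The library kit keeps strand. The deposited tables give a fitted PSI per intron and condition as a fraction, summing to 1 in each cluster, with a status and gene names per cluster. They also hold the authors' own comparison (a log effect, a difference, a likelihood ratio, p-values), which was not used.

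DeltaPSI was computed here as dTAG minus Ctrl. A deposited pair of coordinates names the exon bases beside an intron, since 99.9% of introns then end in splice motifs, and introns are printed from their first to last base, 1-based. GRCm38.p6, which shares mm10 coordinates, GENCODE vM21 and RefSeq gave sequence and annotation. A cluster counted as called from 0.1 in its largest absolute deltaPSI, which is a size and no test. All 8 genes and *Mettl3* were named by rule, with the 2 most changed introns of each cluster. *Pan2*, *Pym1*, *Ttc37* and *Fn1* were named after their values were seen. The remaining intron of each cassette cluster was added likewise. Exon inclusion and the size of 0.02 were chosen after the values were seen. The genes and lists were chosen with earlier results of these data known. Cluster summaries were tested on simulated data without counting or replicate noise, which checks only their arithmetic. Python 3.11.15, pandas 2.3.3, numpy 2.4.6 and pysam 0.24.0 were used. An item of the pathway list is not reported here and is left out of its counts, which do not describe the whole list. Reads were not analysed here.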

Additional observations from a re-analysis of the deposited data

How the results depend on the processing

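Of the 10 tested clusters, which lie in 5 of the 8 genes, 0 were called with the size set to 0.05. This setting could have raised the count, and 19.8% of all tested clusters reached it. The count was also 0 in the following settings, but none of them is a separate check. A size of 0.2 is stricter than the main size of 0.1. With 0.5 of the summed absolute deltaPSI as summary, the value of each of these 10 clusters was unchanged. The same held with introns of a PSI of at least 0.05 only. Leaving out clusters that carry several names removed 0 of these 10. Placing clusters by annotated exon boundaries gave the same 10 clusters. At 0.02, a size added after the values were seen, the count was 3 of 10, against 52.3% of all tested clusters. The median of 0.0141 was unchanged with the summed measure and the PSI filter, but both give the main value in each of these 10 clusters, so this is no check. With 1 cluster for each gene the median was 0.0180. Of the 24 other listed genes 3 reached 0.05, which 29.6% of all 4273 genes with a tested cluster reached. Of their 53 clusters 0 reached 0.1, against 4.63% of all tested clusters. The largest absolute change of a member intron was 0.0447 as deltaPSI, in *Smg1*, and 1.00 on the log2 odds scale, in *Smg5*. Log2 odds were taken with PSI kept at least 0.001 from 0 and from 1. They rise with PSI, so the direction of the 22 introns could not differ between these scales. No paired analysis was possible because the tables hold 1 fitted value per condition, and for the same reason no replicate or clone could be left out. Beyond the authors' minimum of split reads for a cluster, the depth behind each PSI is unknown, so small shares such as those of the *Smg5* minor forms carry an unknown counting error.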
